A study of Homo sapiens with 12 samples.

Results

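TGM2 and SUSD2 are a pair of protein-coding genes that were among the most abundant transcripts of DU145 prostate cancer cells and were lower in the cells made to overexpress GALNT7. They are 2 of the 59424 gene identifiers in the data. Both were picked because their counts were very high in the DU145 control and lower in overexpression, so their overexpression values are given as a description without a test. The rule for the choice did not use their values in the GALNT7 knockdown of another cell line, which were tested. Earlier results of these data were known when the genes were chosen.

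TGM2 (ENSG00000198959) lies on chromosome 20 at chr20:38127387-38166578 on the minus strand of GRCh38, with 8036 exonic bases in GENCODE release 29. SUSD2 (ENSG00000099994) lies on chromosome 22 at chr22:24181259-24189110 on the plus strand, with 5279 exonic bases. TGM2 and RPRD1B, a gene on the opposite strand, share 394 bases where the genes end. The libraries were made with a stranded kit, but whether strand was used in counting is not given in the sources used here, so reads in the shared stretch cannot be assigned with certainty. No annotated gene overlaps SUSD2, and its pseudogene SUSD2P2 held at most 1 read in any library.

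Tissue transglutaminase, the product of TGM2, is a calcium-dependent enzyme that crosslinks glutamine and lysine side chains of proteins, and it also binds GTP. At the cell surface it joins fibronectin to integrins and syndecan, and its gene is a known target of retinoic acid receptors and of NF-kB. SUSD2, sushi domain-containing protein 2, is a membrane protein with an AMOP domain and a sushi domain that serves as a surface marker of mesenchymal stromal cells and is known to bind galectin-1. GALNT7, the gene changed in the experiment, encodes an enzyme of the Golgi that adds N-acetylgalactosamine to proteins.

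The study sequenced polyadenylated RNA from prostate cancer cell lines to ask how gene expression changes when GALNT7 is lowered or raised. CWR22RV1 cells, a line derived from a prostate cancer xenograft, carried lentiviral control shRNA (shControl) or lentiviral shRNA against GALNT7 (GALNT7 KD). DU145 cells, a line derived from a brain metastasis of prostate cancer, carried a lentiviral control (OE control) or lentiviral GALNT7 (GALNT7 OE). The labels give 3 biological replicates for each of the 4 groups. All were stable lines made by transduction, the controls included, and the sources do not say whether any line was 1 clone or whether replicates were separate transductions, so p-values measure only the spread between these libraries.

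The files hold normalised counts (reads divided by 1 factor per library), and the tables of the cell lines were scaled separately, so levels were compared within a cell line only. Depth was 18364512 to 22264533 reads in CWR22RV1 and 21628718 to 24356910 in DU145. GALNT7 followed the labels, at 999 ± 122 normalised counts in shControl against 461 ± 53.7 in GALNT7 KD (log2 fold change -1.11, SE 0.13, limma adjusted p = 0.0051) and at 964 ± 75.8 in OE control against 2181 ± 176 in GALNT7 OE (1.18, SE 0.086, adjusted p = 8.0e-05). All ± values are SD over 3 libraries unless named SE. KLK3, which encodes prostate-specific antigen, averaged 392 normalised counts in shControl and 0 in OE control. The epithelial keratins KRT8 and KRT18 were abundant in both lines, at 10727 and 6199 in shControl and 12979 and 9896 in OE control.

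In DU145 cells TGM2 was one of the 10 genes with the most counts, not corrected for length, and stood far lower in GALNT7 OE. The OE control libraries held 92716, 95487 and 94708 normalised counts of TGM2. The GALNT7 OE libraries held 31064, 30160 and 28954. Every GALNT7 OE library was below every OE control library, and libraries of a group differed little, with coefficients of variation of 1.52% and 3.52%. The means were 94304 ± 1429 and 30059 ± 1058, a log2 difference of -1.65, which left 31.9% of the control level (3.14 fold lower). The ratio between single libraries ran from 2.98 to 3.30.

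SUSD2 differed more. Its normalised counts were 48733, 47840 and 46902 in OE control. In GALNT7 OE they were 4329, 3987 and 3945. The groups did not overlap here either, and the libraries of each group lay close together, with coefficients of variation of 1.91% and 5.15%. The means were 47825 ± 915 and 4087 ± 210, a log2 difference of -3.55, which left 8.55% of the control level (11.7 fold lower, from 10.8 to 12.4 between single libraries). In bulk RNA, fewer cells that express a gene and less of its RNA per cell cannot be told apart. Since both genes were chosen for this difference, the share of all genes whose GALNT7 OE libraries all lay below the OE control libraries (27.1% of 18705) is given only as background.

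**Figure D1:**
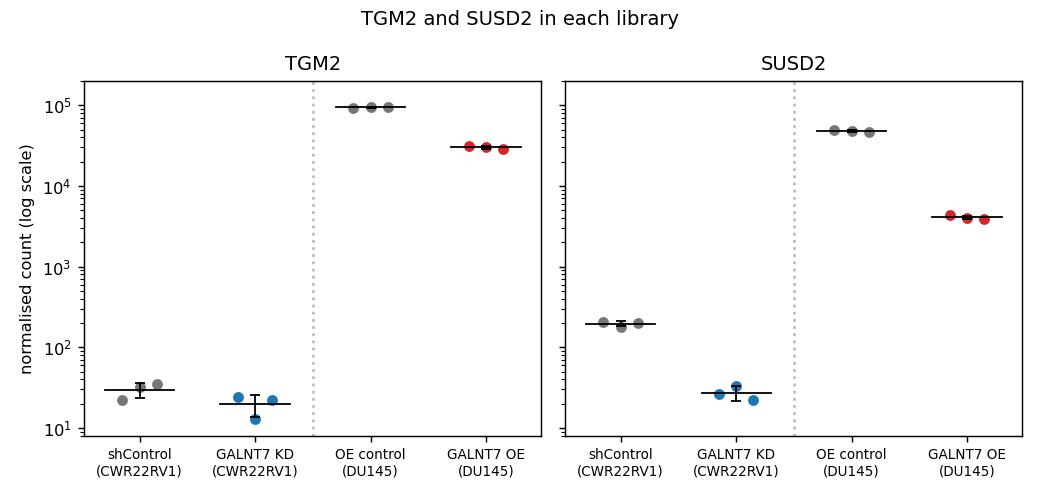
Normalised counts (vertical axis, log scale) of TGM2 (left) and SUSD2 (right) in each library, by group on the horizontal axis. Points are libraries, lines are means and bars are SD over 3 libraries, and a dotted line parts the cell lines, which were scaled separately. SUSD2 is lower in the treated group of both lines (197 to 27.1 in CWR22RV1 and 47825 to 4087 in DU145), while for TGM2 the CWR22RV1 groups overlap.

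The share of each library taken by TGM2 was also lower in GALNT7 OE. Its share of all reads was 0.417% in OE control replicate 1 (95% Wilson interval 0.414 to 0.420), 0.432% in replicate 2 (0.429 to 0.434) and 0.427% in replicate 3 (0.424 to 0.429). In GALNT7 OE the shares were 0.138% (0.137 to 0.140), 0.134% (0.133 to 0.135) and 0.127% (0.126 to 0.129). These intervals cover counting error only. They are narrow because each library held 27604 to 97137 TGM2 reads, and the spread between libraries of a group was wider than counting error alone gives.

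SUSD2 took a smaller share than TGM2 in every DU145 library. Its shares were 0.219% (0.217 to 0.221), 0.216% (0.214 to 0.218) and 0.211% (0.209 to 0.213) in OE control. In GALNT7 OE they were 0.0193% (0.0187 to 0.0199), 0.0177% (0.0172 to 0.0183) and 0.0173% (0.0168 to 0.0179). Together the genes took 0.636% to 0.648% of an OE control library and 0.145% to 0.158% of a GALNT7 OE library. The summed mean share dropped by 0.489 percentage points, which was 3.14% of all share lost by genes with a lower mean share (15.6 points). The mean share of TGM2 dropped by 0.292 points, the 4th largest loss of any gene. That of SUSD2 dropped by 0.197 points, the 7th largest.

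**Figure D2:**
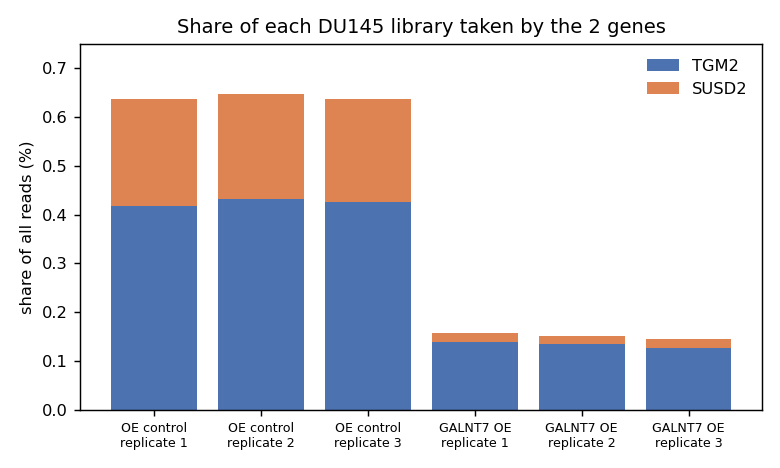
Share of all reads (vertical axis, percent, from 0) taken by TGM2 (blue) and SUSD2 (orange, stacked above it) in each of the 6 DU145 libraries. The stacked bars reach 0.636% to 0.648% in OE control and 0.145% to 0.158% in GALNT7 OE.

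In the same libraries, the 37 genes of the mitochondrial genome took 4.38% to 5.27% of reads in OE control and 1.69% to 3.45% in GALNT7 OE. Their part in the shares above was not tested. With mitochondrial reads left out, the total was smaller and each mean share was higher. TGM2 then took 0.446% in OE control and 0.137% in GALNT7 OE, against 0.425% and 0.133% of all reads. SUSD2 took 0.226% and 0.0186%, against 0.216% and 0.0181%. That total was chosen after the data were seen.

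By rank, TGM2 went down a short way and SUSD2 a long way. By count, TGM2 ranked 9th in each OE control library, and 39th, 37th and 45th in the GALNT7 OE libraries. SUSD2 ranked 26th, 25th and 27th in OE control, and 1041st, 1188th and 1211th in GALNT7 OE. Counts also depend on transcript length, so the genes were compared with each other per kilobase of exon. On that scale the level of TGM2 was 11735 ± 178 normalised counts per kilobase in OE control and that of SUSD2 was 9059 ± 173. In GALNT7 OE the levels were 3741 ± 132 and 774 ± 39.8. By mean level per kilobase TGM2 ranked only 47th in OE control and 167th in GALNT7 OE. SUSD2 ranked 60th and 1300th on that scale, among 56113 genes with a known length. The ratio of TGM2 to SUSD2 per kilobase was 1.30 ± 0.041 in OE control and 4.83 ± 0.13 in GALNT7 OE. That ratio is built from the overexpression values on which both genes were chosen, so it is a description and was not tested.

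Both genes were picked for a high level and a lower count in GALNT7 OE, so their place among all genes on those measures is part of the choice. Of the 18705 genes tested in DU145, 725 (3.88%) had a lower log2 fold change than TGM2, and PSAP was the only one of them at least as abundant as TGM2 in OE control. For SUSD2 74 genes (0.396%) had a lower log2 fold change, and none of those had as many counts as SUSD2 in OE control. PSAP encodes prosaposin, the precursor of lysosomal saposins, and went from 120386 ± 1390 to 37777 ± 981 normalised counts (log2 fold change -1.67). Since it is named here for that fall, no test is given.

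**Figure D3:**
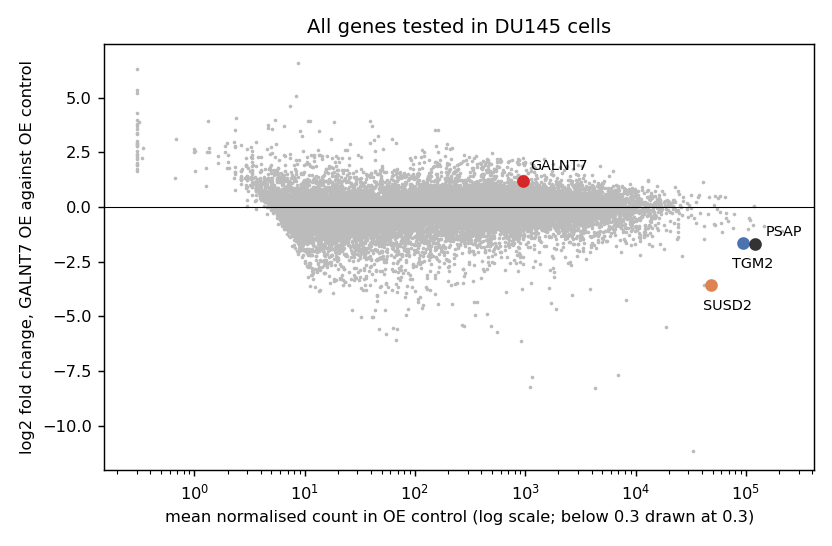
Each point is 1 of the 18705 genes tested in DU145. The horizontal axis is the mean normalised count in OE control (log scale) and the vertical axis is the log2 fold change of GALNT7 OE against OE control. TGM2, SUSD2 and PSAP sit at the lower right, at -1.65, -3.55 and -1.67, and GALNT7 lies above 0 at 1.18.

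The other transcripts with the highest counts in OE control moved in different ways. After MT-CO1 and MT-RNR2, which encode a mitochondrial oxidase subunit and the mitochondrial large ribosomal RNA, came PSAP, EEF1A1, MT-CO2, ITGB1, MT-ND4 and MT-CO3, with TGM2 9th and TXNRD1 10th. EEF1A1, a translation elongation factor, did not pass the test, with 117735 ± 131 and 120575 ± 3096 normalised counts (limma adjusted p = 0.27). TXNRD1, a thioredoxin reductase, fell by 0.32 on the log2 scale (adjusted p = 3.0e-04). ITGB1, an integrin subunit, fell by 0.61 (adjusted p = 2.6e-05). The mitochondrial transcripts varied widely between GALNT7 OE libraries. MT-CO1 fell by 1.10 (SE 0.19, adjusted p = 0.0037), as did MT-RNR2 (-0.87, adjusted p = 0.0085) and MT-CO3 (-1.02, adjusted p = 0.0097), whereas MT-ND4 did not pass the test (adjusted p = 0.28). MT-CO2 passed (adjusted p = 0.047) but not without OE control replicate 1, 2 or 3 or GALNT7 OE replicate 1 (0.069 to 0.12).

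By loss of share, TGM2 stood behind MT-CO1 (0.962% to 0.450%), PSAP (0.543% to 0.167%) and MT-RNR2 (0.665% to 0.366%), and ahead of MT-CO3 (0.474% to 0.236%). GAPDH, a glycolytic enzyme, gained most, from 0.183% to 0.397% (log2 fold change 1.14). Gains of 0.0891 to 0.102 points followed for the glycolytic ENO1, the cytoskeletal actin ACTB, the fatty acid desaturase SCD and the pyruvate kinase PKM. Since these genes were picked for their gain on this contrast, no test is given. Several genes named for abundance or share, among them EEF1A1, GAPDH and MT-RNR2, have near-identical copies or pseudogenes that may share reads with them.

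Among the 100 most abundant genes over the 6 DU145 libraries, 48 rose, 37 fell and 15 did not pass the test. Their median log2 fold change was 0.07, beside -0.01 over all genes, of which 43.5% were called. SUSD2 had the 2nd lowest log2 fold change of the 100 and TGM2 the 4th lowest. When the 100 were chosen on OE control alone, 33 rose and 50 fell, with a median of -0.15, and SUSD2 and TGM2 ranked 4th and 8th lowest. These ranks describe genes chosen for this contrast.

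In CWR22RV1 cells both genes were scarce, and there SUSD2 fell after GALNT7 KD. Its normalised counts were 207, 180 and 202 in shControl, from 222, 204 and 221 reads. In GALNT7 KD they were 26.1, 33.1 and 22.2, from 27, 31 and 23 reads. All GALNT7 KD libraries were far below all shControl libraries. The means were 197 ± 14.3 and 27.1 ± 5.53, a log2 fold change of -2.83 (SE 0.19, 95% confidence interval -3.28 to -2.38, limma adjusted p = 7.2e-04), which left 13.8% of the control level (7.25 fold lower). In this comparison 9.06% of 17906 genes were called and 3.79% were called lower, and 63 genes (0.352%) had a lower log2 fold change than SUSD2. An exact permutation test of the 6 libraries, two-sided, gave p = 0.1, the smallest that 3 against 3 allows. Omitting any single library gave log2 fold changes from -2.98 to -2.70 and adjusted p from 0.0024 to 0.0083.

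TGM2 was scarcer still, with at most 38 reads in a CWR22RV1 library, and its difference did not pass the test. The shControl libraries held 22.4, 31.8 and 34.8 normalised counts, from 24, 36 and 38 reads. The GALNT7 KD libraries held 24.2, 12.8 and 22.2, from 25, 12 and 23 reads. The groups overlapped, since GALNT7 KD replicate 1 lay above shControl replicate 1, and GALNT7 KD replicate 2 was the lowest library. The means were 29.7 ± 6.47 and 19.7 ± 6.07, with a log2 fold change of -0.59 (SE 0.33, 95% confidence interval -1.37 to 0.18, limma adjusted p = 0.31, two-sided exact permutation p = 0.2). Without GALNT7 KD replicate 2 the value was -0.32. At this depth the interval spans both no difference and one of more than 1 on the log2 scale. Of all genes, 15.6% had every GALNT7 KD library below every shControl library, as SUSD2 did and TGM2 did not.

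GALNT7 went down in one experiment and up in the other, and SUSD2 was lower in the treated cells of both, at 13.8% of its control level in GALNT7 KD and 8.55% in GALNT7 OE. TGM2 was at 66.4% and 31.9%. The cell lines and their tables differ, so no test was made between these values. As a share of reads, SUSD2 took 0.000998% in shControl and 0.000138% in GALNT7 KD, and TGM2 took 0.000151% and 0.000100%. By count TGM2 ranked 13956th and SUSD2 10160th in shControl. The order of the genes was thus the reverse of that in DU145, with a TGM2 to SUSD2 ratio per kilobase of 0.0710, 0.116 and 0.113 in the shControl libraries. In GALNT7 KD it was 0.608, 0.254 and 0.657. The log2 ratio differed by 2.26 between the groups without overlap, again at the smallest exact permutation p of 0.1.

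Of the other transglutaminases, F13A1 fell and TGM1 did not pass the test in DU145. F13A1 encodes the A subunit of coagulation factor XIII, which crosslinks fibrin. It fell from 352 ± 79.2 to 11.1 ± 4.19 normalised counts in GALNT7 OE (log2 fold change -4.92, SE 0.32, limma adjusted p = 4.6e-05). TGM1, the transglutaminase of the skin barrier, held 44.7 ± 17.8 and 43.5 ± 23.3 (adjusted p = 0.88). The other 6 of the 8 family members had a mean under 5 normalised counts and were not tested. The median of both tested genes was -2.50, beside -0.01 over all genes, of which 20.5% fell and 22.9% rose. With 2 genes tested, the count shows little about the family. In CWR22RV1, F13A1 was at 0 in all 6 libraries. TGM1 (36.2 and 24.6, adjusted p = 0.15) and TGM5 (12.9 and 8.82, adjusted p = 0.73) did not pass there, and the median of both was -0.48. The median over all genes was -0.01 there, and 9.06% were called. At an unadjusted p under 0.05, 1 of the pair (TGM1) passed. edgeR and DESeq2 called 0, and eBayes without the trend called 1 lower.

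Partners of TGM2 at the cell surface and in the matrix mostly fell in GALNT7 OE. Of 15 listed and tested, 10 fell, 2 rose and 3 did not pass the test, where 20.5% of all genes fell and 22.9% rose. Of the 2 that rose, SPP1 was at 0 in OE control and entered the test only through its GALNT7 OE counts, so its call carries no weight. The median log2 fold change of the 15 was -0.66, against -0.01 over all genes. FN1, encoding fibronectin, the main matrix ligand of TGM2, fell from 1717 ± 24.6 to 662 ± 94.2 normalised counts (-1.38, SE 0.10, limma adjusted p = 8.4e-05). SDC4, the syndecan that binds TGM2 through heparan sulphate, fell from 10665 ± 121 to 4652 ± 64.5 (-1.20, adjusted p = 2.9e-06). The other 8 that fell include the integrin subunits ITGB1 (-0.61), ITGB3 (-1.35) and ITGB5 (-0.22), and the adhesion receptor ADGRG1 (-1.40). They also include the bridging protein MFGE8 (-1.41), the latent TGF-beta binding protein LTBP1 (-1.39), the basement membrane protein NID1 (-0.51) and the endocytic receptor LRP1 (-0.66).

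LRP1 lost its call without OE control replicate 2 or 3 or GALNT7 OE replicate 3 (adjusted p 0.057 to 0.081). S100A4, a calcium-binding substrate of TGM2, rose from 109 ± 8.10 to 223 ± 29.2 normalised counts (log2 fold change 1.03, limma adjusted p = 0.0012). The secreted matrix protein SPP1, or osteopontin, was at 0 in all OE control libraries and averaged 13.4 ± 5.68 in GALNT7 OE. Against a floor of 3 normalised counts per library SPP1 was at least 4.46 fold higher, and the median of the list was again -0.66 with that bound in place of the fitted value. Without GALNT7 OE replicate 3 its mean was under the minimum for a test. SDC2, ITGA5 and PDGFRB did not pass.

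In GALNT7 KD, 1 of 13 tested partners rose and none fell by limma, with a median of 0.01. Over all genes 5.28% rose, 3.79% fell and the median was -0.01. At so low a share, the lack of a lower call shows little about the partners. At an unadjusted p under 0.05, 3 partners were higher and none was lower. edgeR and DESeq2 each called 1 higher and 0 lower. FN1 went from 10111 ± 1199 to 15585 ± 2210 normalised counts (0.62, adjusted p = 0.026). That call ended without shControl replicate 1 or 3 or GALNT7 KD replicate 1 or 2 (0.056 to 0.091). ITGB1, at 7142 ± 146 and 7389 ± 206, did not pass the test (adjusted p = 0.49).

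Of the subunits and feedback genes of NF-kB, a known regulator of TGM2, 8 of 10 fell in GALNT7 OE, none rose by limma (0 at an unadjusted p under 0.05) and the median log2 fold change was -0.86. Over all genes 20.5% fell, 22.9% rose and the median was -0.01. TNFAIP3, the feedback inhibitor A20, fell from 2962 ± 234 to 635 ± 151 normalised counts (-2.25, SE 0.17, limma adjusted p = 1.0e-04). NFKBIA, the inhibitor IkB-alpha, fell from 8529 ± 217 to 4397 ± 478 (-0.96, adjusted p = 1.4e-04). BIRC3, an apoptosis inhibitor, fell by 1.43, the inhibitor NFKBIE by 1.01, and the subunits RELB by 1.03 and NFKB2 by 0.76. The subunits RELA (-0.29) and REL (-0.28) fell less. RELA lost its call without OE control replicate 1, 2 or 3 or GALNT7 OE replicate 2 or 3 (0.050 to 0.071), and REL without OE control replicate 2 (0.051). NFKB1 (0.03) and NFKBIB (0.18) did not pass.

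In GALNT7 KD 1 of the 10 NF-kB genes rose and 1 fell, with a median of -0.05, beside 5.28% higher and 3.79% lower over all genes. NFKB2 rose from 958 ± 3.97 to 1336 ± 52.0 normalised counts (0.48, adjusted p = 0.0074). TNFAIP3 went from 62.9 ± 17.0 to 30.2 ± 1.42 (adjusted p = 0.045). The TNFAIP3 call ended when any 1 of the 6 libraries was left out (0.080 to 0.13) and when replicate numbers entered the fit as a block (0.073).

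The retinoid genes are a list of receptors, binding proteins and enzymes of retinoic acid. Of 13 tested in DU145 (18 of 19 were in the table), 1 rose, 5 fell and 7 did not pass, with a median of -0.17. The share called is near that over all genes (43.5%), so the count shows nothing particular to this list. CRABP2, which carries retinoic acid to its receptors, rose from 506 ± 27.2 to 1068 ± 54.7 normalised counts (log2 fold change 1.08, SE 0.076, limma adjusted p = 6.7e-05). RARRES3, a phospholipase gene induced by retinoids, fell from 147 ± 18.4 to 46.9 ± 14.1 (-1.66, adjusted p = 0.0014). The receptors RARA (-0.48) and RXRA (-0.51) and the enzymes DHRS3 (-0.69) and ALDH1A3 (-0.27) also fell. In GALNT7 KD 1 of 12 tested rose and none fell by limma, with a median of 0.01, where 5.28% of all genes rose and 3.79% fell. At an unadjusted p under 0.05, 3 were higher and 2 lower, while edgeR called 1 higher and 0 lower and DESeq2 2 higher and 1 lower. The one that rose was again CRABP2, from 281 ± 30.4 to 839 ± 32.8 normalised counts (1.58, SE 0.10, adjusted p = 7.0e-04).

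Genes related to SUSD2 by their domains or by galectin binding were mixed. Of 8 tested of 10 listed, 4 fell, 1 rose and 3 did not pass in GALNT7 OE, with a median of -0.86, beside 20.5% lower and 22.9% higher over all genes. The sushi domain genes SUSD3 (-1.33, limma adjusted p = 6.5e-04) and SUSD6 (-1.14, adjusted p = 1.7e-04) fell, as did the AMOP-domain gene ISM1 (-1.84, adjusted p = 0.0045). ISM1 was scarce, at 21.9 and 5.61 normalised counts in OE control and GALNT7 OE. Its call ended when a mean of at least 20 was required. SUSD4 (-1.57, adjusted p = 0.025) lost its call without OE control replicate 1 or 2 or GALNT7 OE replicate 2 or 3 (0.067 to 0.081). LGALS1, which encodes galectin-1, rose from 3166 ± 229 to 5954 ± 399 normalised counts (0.91, adjusted p = 1.1e-04). In the KD experiment 2 of 6 tested rose and none fell by limma, with a median of 0.38, beside 5.28% higher and 3.79% lower over all genes. At an unadjusted p under 0.05, 3 were higher and none was lower. edgeR and DESeq2 each called 2 higher and 0 lower, but without the filter on low counts limma called 1, SUSD4, lower. The 2 that rose by limma were SUSD3 (52.4 ± 16.5 to 118 ± 4.98) and LGALS1 (1584 ± 112 to 2074 ± 114), each at an adjusted p of 0.026. Neither call was firm, since LGALS1 lost it without any 1 library (0.055 to 0.080) and SUSD3 without any but shControl replicate 1 (0.065 to 0.092) and with the replicate block (0.051).

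**Figure D4:**
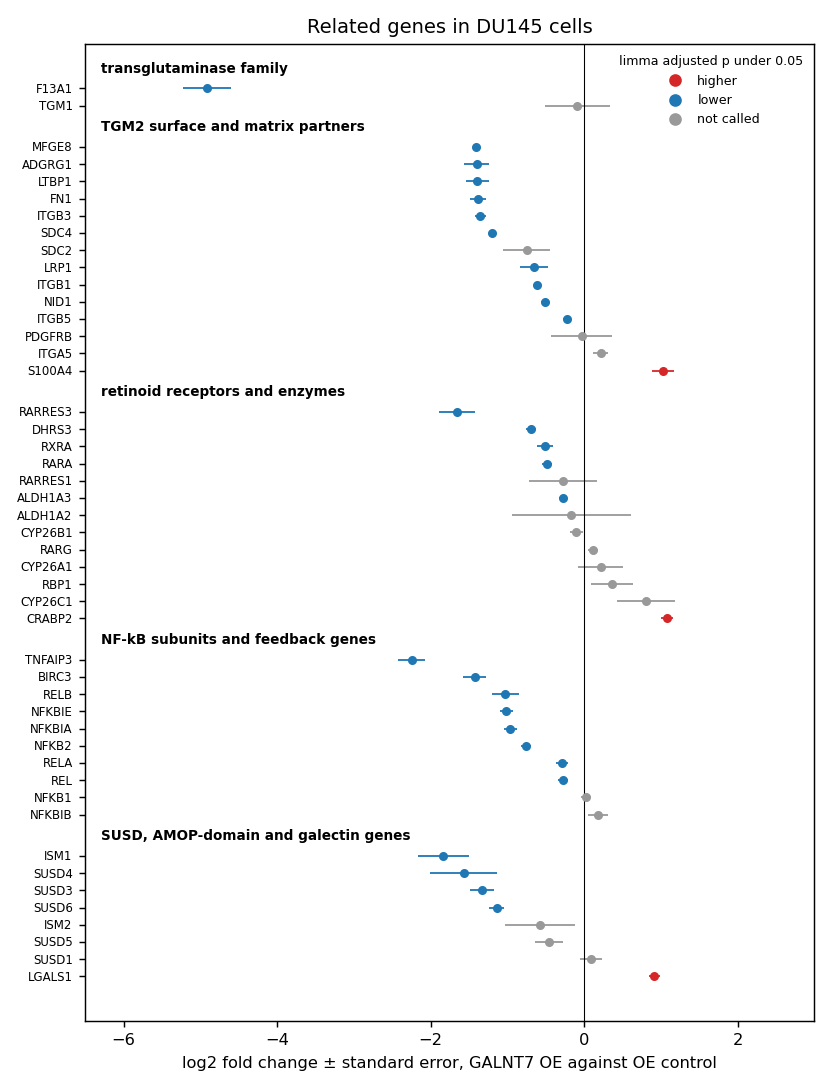
Log2 fold change of GALNT7 OE against OE control (horizontal axis) for the tested genes of the 5 lists, 1 gene a line. Points are limma estimates and bars are SE over 3 libraries per group. Blue genes fell, red genes rose and grey genes did not pass an adjusted p of 0.05. SPP1, at 0 in OE control, is not drawn. F13A1 lies farthest to the left at -4.92, and 8 of 10 NF-kB genes are blue.

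Genes beside TGM2 and SUSD2 on their chromosomes did not all follow them. In DU145, 20.5% of all genes tested fell and 22.9% rose. Of the 3 nearest protein-coding genes with sufficient counts on each side of TGM2, VSTM2L fell from 653 ± 56.2 to 87.5 ± 9.44 normalised counts in GALNT7 OE (log2 fold change -2.89, SE 0.12, limma adjusted p = 8.4e-06). ARHGAP40 also fell (-0.85, adjusted p = 0.022), but not without OE control replicate 1 (0.071). RPRD1B, whose end overlaps that of TGM2, went from 1369 ± 137 to 1630 ± 89.7 (0.25, adjusted p = 0.04995), and only the omission of OE control replicate 1 kept that call (0.064 to 0.14 without any of the others). The RPRD1B call also ended with the replicate block (0.079), without the trend, with a pseudocount of 0.5, without the filter and under 3 other scalings. TTI1, KIAA1755 and RALGAPB did not pass (adjusted p 0.060 to 0.53).

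Beside SUSD2, the closest neighbour CABIN1, a calcineurin-binding protein gene 2630 bases away, fell from 2299 ± 107 to 1405 ± 114 normalised counts (-0.71, SE 0.074, adjusted p = 3.7e-04). On the other side GGT5, a gamma-glutamyltransferase gene 30543 bases away, fell from 692 ± 43.0 to 208 ± 31.6 (-1.74, SE 0.13, adjusted p = 7.7e-05). The glutathione transferase gene GSTT2B, which has a near-identical copy, fell by 1.53 (adjusted p = 0.0012). SPECC1L did not pass (adjusted p = 0.60). The readthrough gene SPECC1L-ADORA2A, which shares exons with it, was at 0 in all OE control libraries and averaged 40.5 ± 11.7 in GALNT7 OE. The split of reads between the pair is uncertain. SPECC1L-ADORA2A passed the filter only through its GALNT7 OE counts, so no test is given. DDT rose by 0.34 (adjusted p = 0.028), a call lost without OE control replicate 1 or 3 or GALNT7 OE replicate 1 or 2 (0.073 to 0.089). None of the 8 neighbours tested in CWR22RV1 passed by limma or edgeR in GALNT7 KD, where limma called 9.06% of all genes. At so low a share, the lack of a call shows little about these genes. DDT alone was higher at an unadjusted p under 0.05 and by DESeq2. CABIN1 for instance had 1428 ± 140 and 1381 ± 147 normalised counts there (adjusted p = 0.82).

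The genes most like TGM2 were found by the root mean square difference of their log2 values, each set against the control mean of its cell line, over all 12 libraries and among 16124 genes. The 5 nearest were EPPK1 (0.15), FAM229A (0.21), GSDMB (0.22), AC015871.3 (0.22) and SCX (0.23), beside a median of 0.99 over all genes. EPPK1, an epidermal plakin, had mean normalised counts of 180 and 53.1 in OE control and GALNT7 OE, and 19.1 and 12.2 in shControl and GALNT7 KD. GSDMB, a pore-forming gasdermin, had 755 and 261, and 126 and 80.3. In CWR22RV1 the pattern of TGM2 rests on 12 to 38 reads per library. All 5 genes were far less abundant than TGM2 in DU145. Since they were picked for this likeness, no test is given.

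By this measure no gene followed SUSD2 as closely, but the median over all genes was also larger, at 2.32 against 0.99. Its 5 nearest were GATA6-AS1 (0.50), the unnamed gene ENSG00000273859 (0.75), IFITM3 (0.88), GABRD (0.91) and GATA3 (0.92). ENSG00000273859 averaged only 11.8 and 0.350 normalised counts in OE control and GALNT7 OE, so counting error weighs on its difference. GATA6-AS1, the antisense gene of the transcription factor GATA6, had mean normalised counts of 35.4 and 2.00 in OE control and GALNT7 OE, and 53.3 and 5.42 in shControl and GALNT7 KD. IFITM3, an interferon-induced membrane protein with near-identical paralogues, was the most abundant of the 5, with 3582 and 682, and 180 and 61.0. GATA3, a transcription factor of luminal epithelium, had 38.9 and 4.93, and 80.2 and 28.1.

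**Figure D5:**
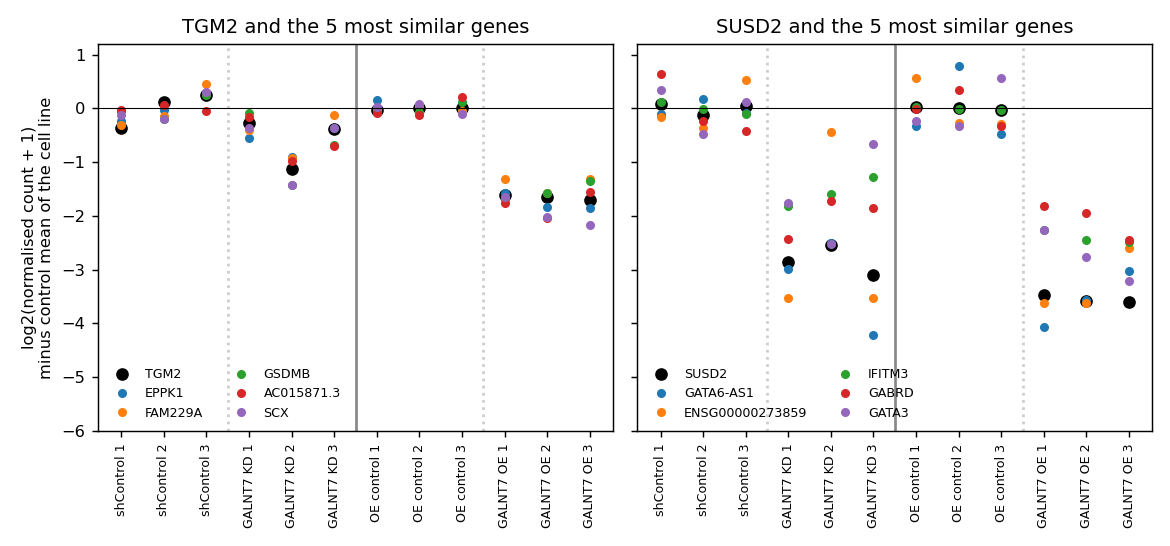
Log2(normalised count + 1) minus the mean of the control group of the same cell line (vertical axis) in each of the 12 libraries (horizontal axis). TGM2 (left, black) and SUSD2 (right, black) are shown with their 5 most similar genes (coloured), and a grey line parts the cell lines. The genes around TGM2 have root mean square differences of 0.15 to 0.23 over the 12 libraries. Single libraries can lie farther apart, as for SCX and TGM2 in GALNT7 OE replicate 3 (-2.17 and -1.70). Those around SUSD2 scatter more widely, with differences of 0.50 to 0.92.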

How the data were processed

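Total RNA of 12 libraries (TruSeq stranded mRNA kit) was sequenced by the study. The authors deposited 1 table per cell line of a signal, normalised counts of 59424 Ensembl identifiers, in which reads were divided by 1 size factor for each library. The submitters' processing notes name FastQC, Salmon, DESeq2, R 3.5.3 and hg38, with no roles or annotation. Dividing each value by the smallest above 0 gave whole reads (within 0.01) for 100% of values. Where Salmon made the counts, these are rounded estimates. In 2 DU145 libraries the factor was near 1, with 1 read worth 1.00755 (OE control replicate 3) and 1.00224 (GALNT7 OE replicate 1) normalised counts. Recovered reads still differed from the deposited values there. By choice, edgeR and DESeq2 were run in CWR22RV1 only. The authors' fold change tables were not used.

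Names, positions and exonic lengths came from GENCODE release 29 (94.4% of identifiers matched). A limma model (version 3.58.1 in R 4.3.3, functions lmFit and eBayes, trended prior) was fitted within each table to log2 values with a pseudocount of 1. Only genes averaging 5 normalised counts or more over the 6 libraries entered, with Benjamini-Hochberg adjustment over all genes tested, two-sided, at 0.05. Log2 fold changes are on this scale, which understates those of low genes. The fits were tested first on simulated data in which only well-counted genes changed, with the same spread setting for every gene. That test does not cover genes as scarce as TGM2 in CWR22RV1. Shares of reads have 95% Wilson intervals.

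The members and the 6 gene lists (70 genes) were chosen with earlier results of these data known. Some members of the list of prostate markers, and its counts, are not reported here. The text names TGM2, SUSD2, GALNT7, list genes, the 10 most abundant genes of OE control, the 5 largest losses and gains of share, the 3 nearest protein-coding genes on each side and the 5 genes most alike in pattern. Alternatives were pseudocounts, filters, scalings, a replicate block, leaving out each library, eBayes without a trend, edgeR 4.0.16 and DESeq2 1.42.0.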

Additional observations from a re-analysis of the deposited data

How the results depend on the processing

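SUSD2 in knockdown kept its direction and its side of the threshold under all 18 alternatives, with adjusted p from 1.1e-23 (DESeq2) to 0.012 (replicate block). TGM2 in knockdown stayed negative and above the threshold under all 18 (adjusted p 0.29 to 0.56, replicate block 0.36), with log2 fold changes from -0.77 to -0.32 when 1 library was left out. In overexpression, leaving out 1 library gave -1.67 to -1.62 for TGM2 and -3.59 to -3.52 for SUSD2. Scaling to the total without the 100 most abundant genes gave -1.72 and -3.62, and without mitochondrial genes, chosen after seeing the data, -1.71 and -3.61. The share of OE control reads was 0.517% and 0.446% for TGM2 and 0.262% and 0.226% for SUSD2 with those totals, which are smaller by construction, and 0.422% to 0.429% and 0.214% to 0.218% with 1 library left out.

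Genes called in knockdown numbered 1623, against 1002 with the replicate block, 996 without the trend, 2642 with DESeq2 and 539 to 1336 with 1 library left out (fewer samples). Their cause was otherwise not tested. In overexpression 8132 genes were called, 7405 with the replicate block and 6757 to 7629 with 1 library left out, and 69 to 86 of the 100 most abundant (85). Of these 8132, 4290 rose and 3842 fell, but more fell than rose when scaled without the 100 most abundant genes (3643 and 4438) or mitochondrial genes (3765 and 4343). Over 12 list counts, 174 of 204 alternative counts were within 1.5 times and 30, all in knockdown, were not. Whether same-numbered libraries are pairs is not settled. Their deviations correlated at -0.011 to 0.075 in knockdown and 0.016 to 0.043 in overexpression. The best match of an OE control library was always the GALNT7 OE library of the same number. In knockdown this held for replicate 2 only. edgeR and DESeq2 were not run in DU145. Read counts limit TGM2 in CWR22RV1, with 12 to 38 reads per library.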
